A study of Mus musculus with 11 samples.

Results

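Lymphomas of E-mu-BRD2 mice were compared by how far the spleen of each animal was enlarged. The group called enlarged here held the 4 arrays whose spleen grade was recorded as severe (transitional 1 and 2) or moderately severe (transitional 4 and 5). The mild group held the 4 arrays with the grade mild (marginal 2, 3 and 4 and transitional 3). These 8 arrays were chosen from 11 by that recorded grade alone. Marginal 1, with the grade marginal, and marginal 5 and 6, with the grade moderate, were left out. Animals were of the FVB strain, and their BRD2 transgene stood under the immunoglobulin heavy chain enhancer, which drives a transgene in B cells. Marginal and transitional are 2 of the severity classes of the study, and each lymphoma was measured on 1 array. Both groups carried it throughout, and oligoclonal immunoglobulin was recorded for each of the 8. All 4 enlarged arrays were of the transitional class, whereas the mild group held 3 marginal arrays and 1 transitional array. Grade and class can therefore hardly be told apart, except through transitional 3. The recorded clinical sign was failure to nest in 7 of the 8 animals and a leg tumour in marginal 4. Animal ages, and the tissue from which RNA was taken, were not stated in the labels. These do not say whether arrays came from separate litters or days, so p-values measure the spread between these samples.

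The spleen filters blood and houses B cell follicles, T cell zones and a red pulp of macrophages. In the mouse it also makes red cells, granulocytes and platelets, and this extramedullary haematopoiesis expands under anaemia, infection or tumour load. A spleen can thus grow through added lymphoma cells or through added haematopoietic cells. BRD2 is a BET protein whose paired bromodomains bind acetylated histones, and which brings chromatin regulators to E2F target genes of the cell cycle.

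Values are MAS5 signals as deposited, and differences are enlarged minus mild after adding 16 and taking log2, so that differences of dim probe sets come out too small. The 2% trimmed mean of the signals was 500.2 on each of the 8, and a shift shared by most transcripts would therefore be hidden. Median signals ran from 98.8 to 151 in the enlarged and from 128 to 137 in the mild group (exact permutation p = 0.486, two-sided, where 4 against 4 cannot go below 0.0286). The 3′ to 5′ ratio of the beta-actin control ran from 1.11 to 1.25 in the enlarged and from 1.12 to 1.44 in the mild group. Xist, the transcript of the inactive X chromosome, was at or above 2638 on marginal 3 and 4 and transitional 3 and 4, and at or below 45.4 on marginal 2 and transitional 1, 2 and 5. The Y-linked Eif2s3y was at or above 280 on those 4 last arrays and at or below 4.2 on the others, so 3 of 4 enlarged and 1 of 4 mild arrays had high Y-linked signal. The part of sex in the results was not tested.

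No probe set separated the groups in the limma test. Of 22626 probe sets, 0 were called higher (0%) and 0 lower (0%) in the enlarged group at an adjusted p of 0.05, and the smallest adjusted p was 0.872. At an unadjusted p under 0.05 there were 437 higher and 724 lower probe sets. For 308 probe sets (1.36%) every enlarged array lay above every mild array, and for 349 (1.54%) every enlarged array lay below. With all arrays brought to a common median signal these counts were 377 and 241, so their balance depended on the scale. In 312 of the 657 the mean signal of at least 1 group reached 200, and the named genes were taken from the 147 higher and 165 lower of these, by the smallest p. The median difference over all probe sets was −0.04, with 46% of them higher.

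Brd2 itself was close in both groups. Its brighter probe set gave 2486, 2331, 3504 and 2540 on the mild arrays, 3001 and 2763 on the severe arrays and 1844 and 2077 on the moderately severe arrays. The log2 difference was −0.17 (SE 0.23, limma adjusted p = 0.91), and both moderately severe arrays lay below all other arrays. The dimmer Brd2 probe set differed by −0.49 (SE 0.25). The labels do not say whether these probe sets also read the transgene transcript. Brd3, another BET member, differed by −0.06 (SE 0.25) and was higher by 0.06 with arrays brought to a common median. The germ-cell member Brdt had mean signals of 34.0 ± 37.2 (SD, n = 4) and 23.9 ± 21.3 (SD, n = 4). Of 10 measured genes of the BET family and its partners, 3 had a higher and 7 a lower mean in the enlarged group, with a median of −0.07 that turned to 0.06 with arrays brought to a common median. Cdk9, the kinase that releases paused RNA polymerase, was lower on every enlarged than on every mild array, at 1921 ± 91.8 against 2705 ± 454 (SD, n = 4 each; difference −0.48, SE 0.18). The acetyltransferase genes Kat2b and Crebbp differed by 0.50 (SE 0.27) and −0.72 (SE 0.51). None of these differences passed the test.

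The 12 genes with the smallest p among those lower without overlap included H2-Ea, Fcgr2b, Btk and Cst3. H2-Ea, the alpha chain of a class II antigen-presenting molecule, gave 1890, 1856, 1926 and 3292 on the mild arrays. It gave 824 and 681 on the severe arrays and 698 and 1021 on the moderately severe arrays. The groups did not overlap, and the difference was −1.43 (SE 0.25, unadjusted p = 0.000218, adjusted p = 0.872). Fcgr2b, the inhibitory Fc receptor of B cells and myeloid cells, gave 3076, 2313, 2748 and 3607 on the mild arrays. Severe arrays gave 1407 and 1603, and moderately severe arrays 999 and 901. All 4 probe sets of Fcgr2b showed no overlap, with differences from −0.97 to −1.27. Btk, the kinase downstream of the B cell receptor, was 886 ± 115 in the enlarged and 1663 ± 312 in the mild group (SD, n = 4 each; difference −0.89, SE 0.21). Cst3, a secreted inhibitor of cysteine proteases that dendritic cells and macrophages make in quantity, was tightly grouped in mild lymphomas, at 10414, 9437, 10539 and 10271. It was 5632 and 6641 on the severe and 3454 and 3685 on the moderately severe arrays, a difference of −1.12 (SE 0.24).

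Cd209a, a lectin of dendritic cells, was 464, 123, 195 and 158 on the mild arrays and at most 73.1 on any enlarged array (difference −2.26, SE 0.53). Ighg3, the constant region of IgG3, differed by −2.44 (SE 0.52) and, at a second probe set, by −2.53, while its 2 dimmest probe sets pointed up by 0.44 and 0.24. The sphingosine-1-phosphate receptor S1pr3, which helps to place marginal zone B cells, was 81.7 ± 16.7 against 225 ± 60.2 (SD, n = 4 each; difference −1.29, SE 0.30). Mtss1, an actin and membrane regulator, differed by −1.32 (SE 0.29), and the unconventional myosin Myo1c by −0.87 (SE 0.22), although the dimmest probe set of Myo1c showed 0.06. The lysosomal amino acid transporter Slc66a1 differed by −1.45 (SE 0.34), the liprin Ppfibp2 by −1.52 (SE 0.33) and BC028528 by −1.59 (SE 0.30). Each grade alone lay below the mild mean for these 12 genes, as the choice of non-overlapping groups requires. Bulk RNA cannot tell fewer cells of a type from less RNA in each cell.

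The 12 genes with the smallest p among those higher without overlap included D17H6S56E-5, Gja1, Tfpi and Shmt2. D17H6S56E-5, which RefSeq lists as a protein-coding gene of chromosome 17, gave 315, 458, 242 and 197 on the mild arrays. It gave 1052 and 1203 on the severe and 764 and 2898 on the moderately severe arrays, a difference of 2.11 (SE 0.42, unadjusted p = 0.000594), and its other probe set gave 2.57. Gja1, a gap junction connexin, was 50.6, 82.9, 19.9 and 45.9 on the mild arrays and 115, 641, 327 and 283 on the enlarged arrays (difference 2.31, SE 0.51). Of its 6 probe sets 2 showed no overlap, and the one at 0.21 was dim in both groups. Tfpi, an inhibitor of the tissue factor pathway of coagulation, was 381 ± 129 against 159 ± 40.1 (SD, n = 4 each; difference 1.16, SE 0.30), and all 3 of its probe sets showed no overlap. Shmt2, the mitochondrial enzyme that feeds serine into one-carbon metabolism, gave 325, 697, 596 and 420 on the mild arrays. On the enlarged arrays it gave 754, 1194, 2353 and 1345 (difference 1.38, SE 0.37).

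Differences of the other 8 genes were smaller or rested on fewer probe sets. The kinase genes Dapk2, linked to cell death and autophagy, and Hipk2, linked to p53, differed by 0.99 (SE 0.27) and 1.85 (SE 0.52). The other 4 probe sets of Hipk2 differed by 0.25 to 0.79 and overlapped. Aplp2, a relative of the amyloid precursor protein, differed by 0.68 (SE 0.18), with its other 4 probe sets at 0.42 to 0.91 and overlapping. The LIM protein gene Csrp1 differed by 0.81 (SE 0.23), the DNA damage response gene Paxip1 by 0.83 (SE 0.25) and the uridine-cytidine kinase gene Uck2 by 0.94 (SE 0.28). The RNA-binding protein gene Syncrip differed by 0.74 (SE 0.22) and Mrpl57, of the mitochondrial ribosome, by 0.62 (SE 0.18). The second Mrpl57 probe set, at a mean of 68.1 and 74.5, differed by −0.05. All 24 named genes kept their direction under the alternatives tried. The choice of non-overlapping groups requires this wherever the signals were not rescaled. None of the 24 passed the test over the 4 arrays of each group (limma adjusted p = 0.872). With only the moderately severe arrays standing for the enlarged group 17 of 24 passed. In that setting 588 of all 22626 probe sets were called higher and 1404 lower. The 24 were chosen for their separation on these same arrays, so the count is no separate evidence.

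**Figure D1:**
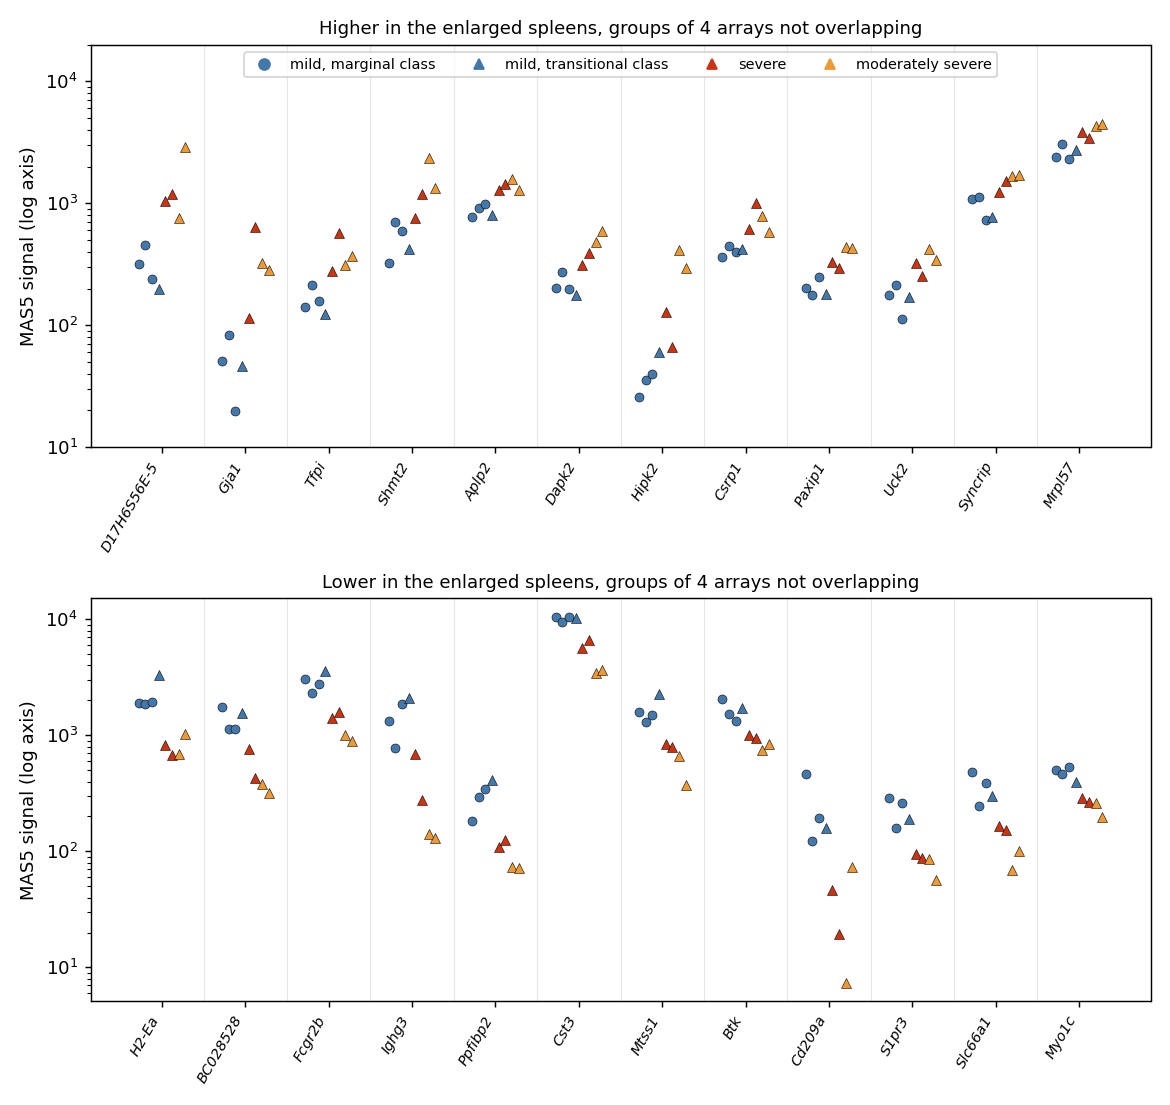
MAS5 signal (log axis) of the 12 genes that were higher and the 12 that were lower in the enlarged group, with 1 point for each array, coloured by spleen grade and shaped by class. No enlarged point overlaps a mild point for any of the 24 genes, which is how they were chosen, and H2-Ea is the gene with the smallest p.

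D17H6S56E-5 had neighbours that were high on several of the same arrays. This group of genes was singled out after its values were seen, and no test was made of it. RefSeq places 10 protein-coding genes in the order Hspa1b, Hspa1a, Hspa1l, Lsm2, D17H6S56E-5, Vars, Vwa7, Sapcd1, Msh5 and Clic1. Vars, the valyl-tRNA synthetase, gave 150, 165, 150 and 292 on the mild arrays, 777 and 1186 on the severe arrays and 267 and 714 on the moderately severe arrays (difference 1.75, SE 0.44). Only transitional 4, at 267, lay within the range of the mild arrays. Sapcd1 was 638 and 700 on the severe arrays and 401 on the mild array transitional 3, but at most 166 on the other 5. The meiotic recombination gene Msh5 showed no overlap at its dimmer probe set (difference 1.79, SE 0.40) and overlapped at its brighter one (0.83, SE 0.42). The inducible Hsp70 gene Hspa1a gave 80.9, 1112, 116 and 1013 on the mild arrays and 1829, 785, 596 and 14287 on the enlarged arrays (difference 2.44, SE 1.13). Its twin Hspa1b differed by 2.38 (SE 0.93), and its groups overlapped as well. Lsm2, a splicing factor, differed by 0.51 (SE 0.32), Vwa7 by 0.17 and Clic1, an intracellular chloride channel protein, by −0.64 (SE 0.31). Hspa1l was not above a signal of 20.4 on any of the 8 arrays.

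**Figure D2:**
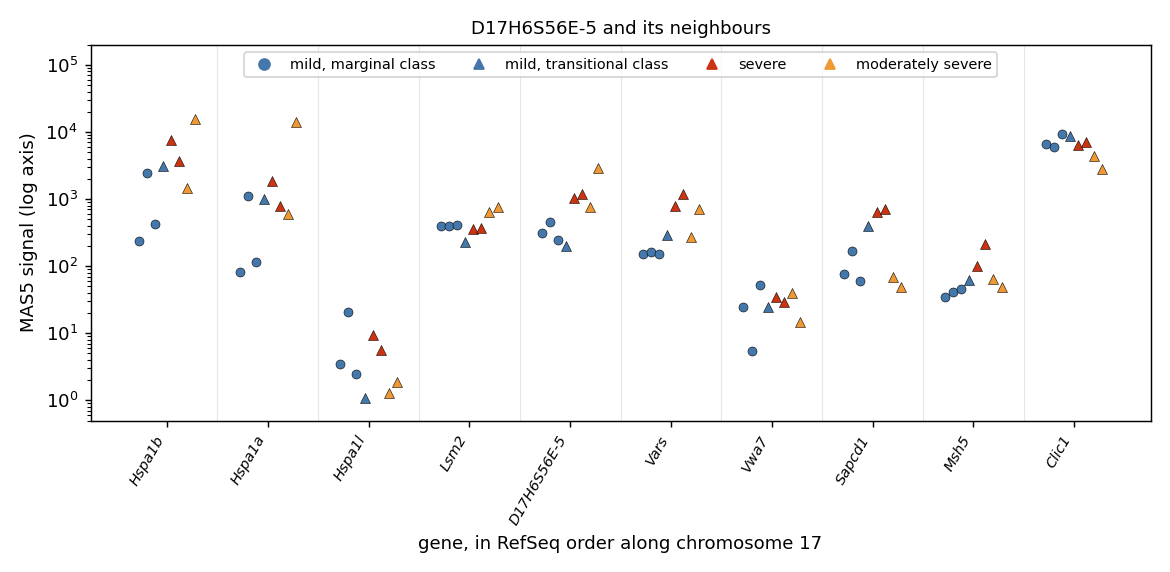
MAS5 signal (log axis) of D17H6S56E-5 and 9 neighbouring genes in their RefSeq order, at the probe set with the highest mean, with 1 point for each array. D17H6S56E-5 separates the groups, Vars all but separates them, and Lsm2, Vwa7 and Clic1 do not.

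The RefSeq promoter windows (GRCm38.p6) of the Hsp70 twins and of D17H6S56E-5 are printed because all 3 genes were highest on transitional 5. Each window runs from 250 bases before to 50 bases after the start. Capitals mark the heat shock core GAANNTTC, which reads the same on both strands.
Hspa1b, chr17:34959189-34959488, minus strand: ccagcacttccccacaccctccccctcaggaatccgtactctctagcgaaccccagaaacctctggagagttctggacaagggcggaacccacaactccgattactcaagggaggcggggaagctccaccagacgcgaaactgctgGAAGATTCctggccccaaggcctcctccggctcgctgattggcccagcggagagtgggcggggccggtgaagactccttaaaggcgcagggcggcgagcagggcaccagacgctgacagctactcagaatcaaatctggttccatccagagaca
Hspa1a, chr17:34972107-34972406, minus strand: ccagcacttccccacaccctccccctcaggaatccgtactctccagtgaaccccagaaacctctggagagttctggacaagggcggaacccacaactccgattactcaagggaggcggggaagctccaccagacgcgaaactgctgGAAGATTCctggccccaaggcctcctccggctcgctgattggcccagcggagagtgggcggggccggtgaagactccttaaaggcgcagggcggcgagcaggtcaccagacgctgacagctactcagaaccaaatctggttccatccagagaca
D17H6S56E-5, chr17:35000697-35000996, minus strand: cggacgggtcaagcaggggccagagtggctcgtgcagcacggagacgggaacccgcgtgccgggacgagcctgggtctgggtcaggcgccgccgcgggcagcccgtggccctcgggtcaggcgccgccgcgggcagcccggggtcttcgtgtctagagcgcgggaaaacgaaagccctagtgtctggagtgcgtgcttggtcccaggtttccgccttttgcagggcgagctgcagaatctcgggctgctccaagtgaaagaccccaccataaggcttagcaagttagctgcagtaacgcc
The Hsp70 windows were equal at 296 of 300 positions, and each held 1 core, 104 bases before the start. The D17H6S56E-5 window held none of these letters. Over all RefSeq promoter windows 7.9% of 32851 held the core, against 45.8% of 24 windows of the heat shock list. The probe sets of Hspa1a and Hspa1b may share target sequence, which promoter windows do not show. Their signals may therefore not be separate measurements, which was not tested.

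The 2 severe and the 2 moderately severe arrays did not move together against the mild arrays. Of 22626 probe sets, 10859 (48%) had both grades on the same side of the mild mean and 11767 had them on opposite sides. Both differences used the same 4 mild arrays. Where both grades lay at least 1 log2 unit from the mild mean, 162 of 635 probe sets had both on the same side. In 180 of the 635 the severe arrays were higher and the moderately severe arrays lower, and in 293 the reverse held. Severe against mild gave 0 calls in limma (0%, smallest adjusted p = 0.347; 1703 probe sets at an unadjusted p under 0.05). Moderately severe against mild gave 704 higher (3.11%) and 1569 lower (6.93%) probe sets. Moderately severe against severe gave 1092 higher (4.83%) and 1768 lower (7.81%). With arrays brought to a common median the last 2 comparisons gave 1724 higher and 984 lower, and 2053 higher and 960 lower, so the directions of these calls depended on the scale. That scaling moved the median difference between these grades from −0.24 to 0.06.

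The number of these calls changed when single arrays of either grade were left out. The grade concerned then rested on 1 array, which by itself lowers the precision. Without transitional 5 moderately severe against mild gave 0 calls, and moderately severe against severe gave 1 higher and 37 lower. Without transitional 4 the same comparisons gave 32 higher and 463 lower, and 97 higher and 539 lower. Moderately severe against severe gave 165 higher and 762 lower without transitional 1, and 420 and 669 without transitional 2. Without transitional 1, severe against mild gave 98 calls. Over the 10531 probe sets with a group mean of at least 200, the median absolute log2 difference was 0.30 within the severe pair, 0.29 within the moderately severe pair and 0.31 to 0.45 between mild arrays. It was 0.33 to 0.40 between severe and mild arrays, 0.44 to 0.79 between moderately severe and mild arrays and 0.65 to 0.72 between severe and moderately severe arrays. The severe arrays thus differed from the mild arrays about as much as the mild arrays did from each other. The moderately severe pair stood apart from the other arrays except marginal 3. This mild array differed by 0.44 from transitional 4 and by 0.45 from transitional 5. Its difference from the mild array marginal 4 was 0.45 as well.

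**Figure D3:**
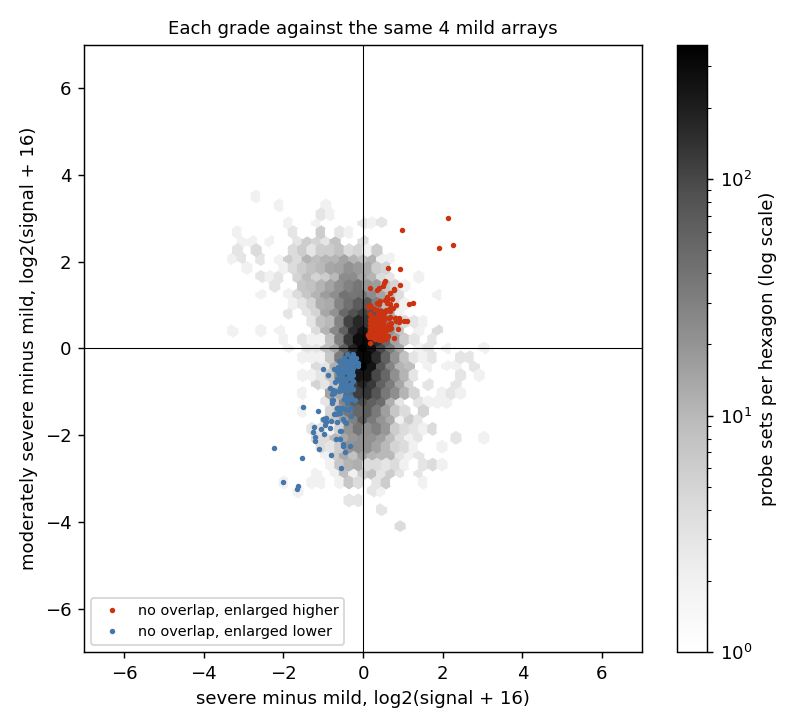
Log2 difference from the mild arrays for the severe (horizontal) and the moderately severe arrays (vertical), over the probe sets with a group mean of at least 200, as hexagons shaded by count. Red and blue points are the probe sets whose groups did not overlap (enlarged higher and lower), and the shaded cloud is wider vertically than horizontally, and the points lie on the same side of both axes, which follows from how they were chosen.

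The 6 genes with the smallest p among those lower in moderately severe than in severe included several of lymphocytes. Ms4a1, the B cell surface protein CD20, gave 8567, 7855, 8376 and 9985 on the mild arrays and 9070 and 8943 on the severe arrays. On the moderately severe arrays it gave 1367 and 1139, a difference of −2.84 from severe (SE 0.22, limma adjusted p = 0.00692). The T cell receptor signalling adaptor Lat gave 700, 770, 1038 and 919 on the mild arrays, 2237 and 2623 on the severe and 264 and 115 on the moderately severe arrays. It thus lay above all mild arrays in the one grade and below them in the other (−3.67, SE 0.36). Cd6, a T cell surface receptor, differed by −6.00 (SE 0.57), and was down to 5.3 and 3.3 on the moderately severe arrays. Gimap7, a GTPase of lymphocytes, differed by −4.29 (SE 0.39), the lymphocyte receptor Ly9 by −3.62 (SE 0.36) and Gramd3 by −2.998 (SE 0.29).

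The 6 genes with the smallest p among those higher in moderately severe were each below the mild mean on the severe arrays. Ptger3, a receptor for prostaglandin E2, gave 57.3, 36.4, 30.9 and 29.1 on the mild arrays, 9.7 and 37.0 on the severe and 611 and 558 on the moderately severe arrays (4.02, SE 0.47, adjusted p = 0.00719). Ppp1r15a, which ends the block of translation in the stress response, gave 1247, 2227, 844 and 967 on the mild arrays, 483 and 631 on the severe and 5523 and 4977 on the moderately severe arrays (3.21, SE 0.41). The LIM protein gene Crip2 differed by 3.14 (SE 0.41), Slc66a2 by 2.58 (SE 0.32), Pithd1 by 2.11 (SE 0.28) and Glo1, the glyoxalase that clears methylglyoxal, by 2.07 (SE 0.27).

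**Figure D4:**
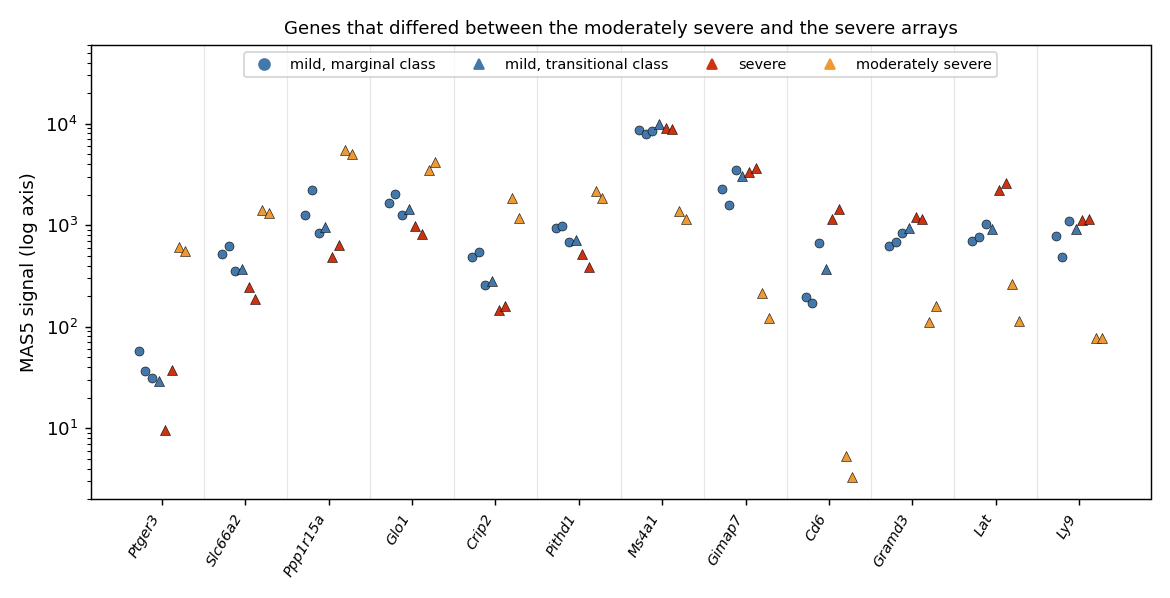
MAS5 signal (log axis) of the 6 genes per direction with the smallest p for moderately severe against severe, with 1 point for each array. Mild arrays lie between the grades or beside the severe arrays, and the moderately severe pair stands apart for every gene shown.

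Gene lists were described by the probe set with the highest mean for each gene. In 31 of 45 lists the median difference from mild lay on opposite sides in the 2 grades, and for 0 lists did the per-array mean separate the enlarged from the mild group. Genes named below for the contrast between grades were taken from the 4 of each list with the smallest p among those called, a rule chosen after the values were seen. No list gene was called in enlarged against mild. Counts of list genes called between the grades stand beside 4.83% of all probe sets called higher and 7.81% called lower in moderately severe than in severe. Counts of list genes with no overlap between enlarged and mild stand beside 1.36% higher and 1.54% lower.

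B lineage genes were lower in the enlarged group mainly through the moderately severe arrays. All 18 measured genes of B cell identity had a lower mean in the enlarged group, with a median of −1.64 beside −0.04 over all probe sets. The medians were −0.39 for severe and −2.81 for moderately severe against mild, and 16 of the 18 were called lower in the latter, beside 6.93% of all probe sets. Cd72, a coreceptor that dampens B cell receptor signalling, gave 3155, 1194, 3161 and 3521 on the mild arrays and 1441, 305, 218 and 212 on the enlarged arrays. Transitional 1 overlapped with marginal 3, and the difference was −2.69 (SE 0.61). Ebf1, which specifies the B lineage, differed by −2.04 (SE 0.57). Between the grades Spib, Blnk and Pou2af1, regulators of B cell receptor signalling and immunoglobulin transcription, differed by −2.80 (SE 0.35), −2.43 (SE 0.31) and −3.05 (SE 0.46).

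All 15 genes of B1 and marginal zone B cells also had a lower mean, with a median of −0.79. Their medians were −0.17 for severe and −1.21 for moderately severe against mild. Plac8 showed no overlap, at 8026 in the enlarged and 14770 in the mild group (difference −0.85, SE 0.26), and Dtx1, a regulator of Notch signalling, differed by −1.68 (SE 0.67). Cd5, a receptor of T cells and B1 cells, was higher on the severe arrays, at 1829 and 2112, and was 126 and 43.1 on the moderately severe arrays (−4.44, SE 0.48). Plasma cell genes had medians of 0.34 for severe and −1.33 for moderately severe. Jchain, which joins IgM and IgA subunits, Tnfrsf13b, the receptor TACI, and Tnfrsf17, the receptor BCMA, differed by −1.02 (SE 0.50), −1.36 (SE 0.63) and −1.33 (SE 0.78). Jchain was 3670 on transitional 2 against 24911 on transitional 1. Germinal centre genes had medians of 0.73 and −1.16, and Fas, Basp1 and Mef2b differed between grades by −2.95 (SE 0.48), −2.73 (SE 0.47) and −2.87 (SE 0.53). Bcl6, the repressor that germinal centre B cells need, differed by −1.05 (SE 0.42) between enlarged and mild, and the repair genes Polh and Ung by 0.45 (SE 0.43) and 0.16 (SE 0.23).

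T cell and cytotoxic genes were higher than mild on the severe arrays and lower on the moderately severe arrays. Of 21 measured T cell genes, 19 were higher on the severe and 1 on the moderately severe arrays, with medians of 1.05 and −2.72. Between the grades 16 of the 21 were called lower in moderately severe, beside 7.81% of all probe sets. Cd28, the costimulatory receptor, was 1400 and 1123 on the severe arrays and 81.4 and 15.8 on the moderately severe arrays (−4.51, SE 0.58), with mild arrays from 290 to 889. The T cell genes with the smallest p for enlarged against mild were Cd2 (−1.79, SE 0.90), Foxp3 (−0.71, SE 0.36) and Zap70 (0.51, SE 0.30). Of 18 natural killer and cytotoxic genes, 14 were higher on the severe and 0 on the moderately severe arrays. Eomes, a transcription factor of cytotoxic lymphocytes, was 1651 and 991 on the severe and 45.0 and 24.3 on the moderately severe arrays (−4.71, SE 0.59). Prf1, which encodes perforin, and Fasl differed by −3.36 (SE 0.47) and −4.13 (SE 0.73). For enlarged against mild the smallest p values were those of Ncr1 (−1.33, SE 0.45), Klra8 (−0.51, SE 0.31) and Klrd1 (−0.88, SE 0.67).

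Interferon gamma GTPase and class I genes were mostly higher than mild on the severe arrays and lower on the moderately severe arrays. The interferon gamma GTPases had medians of 1.14 for severe and −1.62 for moderately severe against mild, with 9 of 12 called lower and 1 higher between the grades. Gbp2 gave 780, 737, 2534 and 1710 on the mild arrays, 2626 and 6477 on the severe and 179 and 75.4 on the moderately severe arrays (−4.96, SE 0.66). Iigp1 and the transcription factor gene Irf1 differed by −5.23 (SE 0.81) and −2.998 (SE 0.47). Irgm2 went the other way, at 2217 and 1370 on the moderately severe arrays and at most 816 on the others (enlarged minus mild 0.74, SE 0.41), Igtp differed by 0.72 (SE 0.27) and Gbp7 by 0.53 (SE 0.42). Class I genes had medians of 0.35 and −1.58, with 11 and 1 of 13 higher than mild. Of these 13 genes 11 were called lower in moderately severe than in severe (7.81% of all probe sets), including the immunoproteasome subunits Psmb8 (−2.70, SE 0.32) and Psmb9 (−2.86, SE 0.35). H2-M3, H2-K1 and H2-D1 differed by −1.67 (SE 0.63), −0.90 (SE 0.49) and −0.68 (SE 0.34) in the enlarged group. Class II genes were lower in 9 of 10, with a median of −1.18. Their medians were −0.15 for severe and −1.89 for moderately severe, with 1 and 0 of 10 higher than mild, and 9 of 10 were called lower between the grades. H2-Oa and H2-Ab1 differed by −1.71 (SE 0.70) and −1.24 (SE 0.58), and H2-Ea, the member not called between the grades, differed from mild by −1.52 on the severe and −1.35 on the moderately severe arrays.

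Type I interferon genes had a median of −0.18, with 0.41 for severe and −0.54 for moderately severe against mild. Ifih1, a sensor of double-stranded RNA, was the member with no overlap, at 0.61 (SE 0.22). Irf9 and Oasl1 differed by −0.70 (SE 0.36) and −0.43 (SE 0.28). Zbp1, a nucleic acid sensor, differed between grades by −3.41 (SE 0.36). NF-kB and costimulation genes were lower in 15 of 17, with a median of −0.68. Their medians were −0.06 for severe and −1.74 for moderately severe, with 7 and 3 of 17 higher than mild. Cd40, the B cell costimulatory receptor, and the pathway genes Nfkbie and Nfkb2 differed by −1.77 (SE 0.70), −1.35 (SE 0.45) and −1.15 (SE 0.46). Dendritic cell genes were lower in 9 of 11, with medians of −0.09 for severe and −1.5 for moderately severe. Batf3 differed by −1.38 (SE 0.51) and Cd83 by −1.07 (SE 0.63) in the enlarged group.

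Red cell and granulocyte genes ran the opposite way, lower than mild on the severe and higher on the moderately severe arrays. Of 21 red cell membrane and enzyme genes, 0 were higher on the severe and 20 on the moderately severe arrays, with medians of −2.24 and 2.29. Between the grades 19 were called higher and 1 lower, beside 4.83% and 7.81% of all probe sets. Of 19 erythroid regulators 16 were called higher, and of 16 genes of haemoglobin and haem synthesis 13. Epb42, an anchor protein of the red cell membrane, gave 1147, 2000, 297 and 145 on the mild arrays. It gave 27.0 and 75.5 on the severe and 3739 and 3290 on the moderately severe arrays (5.81, SE 1.01). Gata1, the master regulator of the lineage, gave 636, 888, 314 and 142 on the mild, 77.2 and 157 on the severe and 2973 and 2315 on the moderately severe arrays (4.38, SE 0.71). The mild arrays thus covered much of the span between the grades, with marginal 2 and 3 towards the moderately severe arrays and transitional 3 beside the severe arrays.

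The erythropoietin receptor gene Epor, Trim10 and the Gata1 cofactor Zfpm1 differed by 4.14 (SE 0.62), 5.34 (SE 0.94) and 3.01 (SE 0.42). The haem synthesis genes Uros and Urod differed by 3.45 (SE 0.51) and 3.99 (SE 0.59), and the haem-related transporters Abcb6 and Slc25a38 by 3.08 (SE 0.47) and 2.81 (SE 0.43). Blvrb, a biliverdin reductase of red cells, Prdx2, a peroxidase, and Icam4, an adhesion molecule, differed by 3.61 (SE 0.58), 2.82 (SE 0.47) and 5.61 (SE 0.93). Pooled over both grades these differences cancelled, and the medians of the haem, membrane and regulator lists were 0.23, −0.17 and 0.04. The membrane median turned to 0.02 when all probe sets per gene were averaged, and the regulator median to −0.02 after quantile normalization. Both also changed sign when single arrays were left out. The members with the smallest p for enlarged against mild were not typical of their lists. They were Acp5 (−0.87, SE 0.37), Tspo2 (1.40, SE 1.04), Bpgm (−0.96, SE 0.81), Bcl11a (−0.92, SE 0.33), Lyl1 (−0.28, SE 0.22), Cited4 (0.93, SE 0.90), Hbb-b2 (−1.39, SE 1.28) and, at signals of at most 40.4, Hba-a1 (−0.61, SE 0.26) and Hba-x (0.49, SE 0.34).

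The neutrophil and granule list had 15 of 15 genes lower on the severe and higher on the moderately severe arrays, with medians of −1.81 and 1.62, and 6 were called higher between the grades, beside 4.83% of all probe sets. Elane, neutrophil elastase, gave 736, 5198, 175 and 141 on the mild arrays, 49.3 and 109 on the severe and 6787 and 6659 on the moderately severe arrays (6.22, SE 1.36). The mild array marginal 3 thus sat with the moderately severe pair. Of the arrays left out, marginal 1, of the lowest grade, gave 15308 for Elane, and marginal 5 and 6 gave 187 and 157. Mpo, myeloperoxidase, Ctsg, cathepsin G, and Ms4a3, a marker of granulocyte precursors, differed by 6.75 (SE 1.54), 8.11 (SE 1.64) and 5.81 (SE 1.34). Camp, Mmp9 and S100a8, genes of mature neutrophils, differed by −0.99 (SE 1.22), −0.45 (SE 0.92) and −0.40 (SE 0.72) in the enlarged group.

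Promoter windows are shown of the first 2 genes of the red cell membrane and enzyme list, by p between the grades, that held a GATA spelling. The letters searched on both strands were AGATAA or, with another last base, AGATAG, as well as TGATAA and, with that same change, TGATAG. Capitals mark the match.
Blvrb, GRCm38.p6 chr7:27452168-27452467, plus strand: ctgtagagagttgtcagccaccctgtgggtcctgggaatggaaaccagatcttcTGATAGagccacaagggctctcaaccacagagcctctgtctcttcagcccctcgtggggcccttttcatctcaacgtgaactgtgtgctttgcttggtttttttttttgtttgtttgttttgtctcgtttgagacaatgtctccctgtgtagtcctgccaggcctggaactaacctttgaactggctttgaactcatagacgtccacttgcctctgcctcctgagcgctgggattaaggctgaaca
Icam4, GRCm38.p6 chr9:21029182-21029481, plus strand: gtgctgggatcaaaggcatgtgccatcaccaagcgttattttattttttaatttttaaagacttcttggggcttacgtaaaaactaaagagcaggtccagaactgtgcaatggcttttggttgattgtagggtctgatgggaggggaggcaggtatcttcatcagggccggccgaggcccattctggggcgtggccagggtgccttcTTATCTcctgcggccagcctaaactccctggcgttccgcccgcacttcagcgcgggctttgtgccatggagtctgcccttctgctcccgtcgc
A GATA spelling stood in 58.8% of 17 windows of red cell membrane and enzyme genes, 42.9% of 14 haemoglobin and haem windows and 31.8% of 22 regulator windows, against 29.8% of all RefSeq promoter windows. Red cell genes such as Epb42 and Icam4 moved together over the arrays, and a match of these letters is a description of the window only.

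Cell cycle genes were high on the moderately severe arrays and close to mild on the severe arrays. Of 31 DNA replication genes 30 had a higher mean in the enlarged group, with a median of 0.73 made up of −0.11 in severe and 1.59 in moderately severe, and 22 were called higher between the grades, beside 4.83% of all probe sets. Of 30 mitosis genes 30 were higher, with a median of 0.86, and of 10 chromatin assembly and core histone genes 10, with a median of 0.55. Mcm5, a subunit of the replicative helicase, gave 1534, 2070, 1332 and 1265 on the mild arrays. It gave 1119 and 1600 on the severe and 5179 and 4389 on the moderately severe arrays (1.82, SE 0.29). Racgap1, which organises the cleavage furrow, was the mitosis gene whose groups did not overlap, at 1226 in the enlarged and 673 in the mild group (0.86, SE 0.29). Cdc45, Mcm3 and Pola2, of the replication machinery, differed by 1.13 (SE 0.49), 1.04 (SE 0.39) and 0.75 (SE 0.28), and Bub1 and Top2a by 1.30 (SE 0.64) and 0.88 (SE 0.44).

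Among E2F, RB and cyclin genes the medians were −0.34 and 1.40. Cyclin E1 (Ccne1), cyclin D3 (Ccnd3) and cyclin B2 (Ccnb2) were higher in moderately severe than in severe by 2.42 (SE 0.39), 2.08 (SE 0.35) and 2.78 (SE 0.52). Rbl2, a pocket protein of resting cells, differed by −2.17 (SE 0.35). For enlarged against mild the smallest p values were those of the inhibitor gene Cdkn1a (1.21, SE 0.44), Tfdp1 (0.93, SE 0.36) and E2f4 (0.81, SE 0.40). Ezh2, Uhrf1 and Dnmt1, which maintain histone and DNA methylation, differed by 0.90 (SE 0.45), 0.93 (SE 0.58) and 0.57 (SE 0.38). Red cell genes moved with the cell cycle genes on the moderately severe arrays. The summed signal of the red cell membrane and enzyme list ran from 11260 to 186400 in the enlarged and from 25510 to 115800 in the mild group, and its part in the cell cycle values was not tested.

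Metabolic and chaperone lists moved less. Respiratory chain genes were higher in 29 of 31, with a median of 0.23. Their medians were 0.04 for severe and 0.41 for moderately severe, with 18 and 30 of 31 higher than mild. Of these genes 3 showed no overlap, beside 1.36% of all probe sets. These were Uqcrfs1 of complex III (0.58, SE 0.24), Ndufs1 of complex I (0.42, SE 0.21) and Cox5a of complex IV (0.25, SE 0.17), and Ndufa2 differed by 0.40 (SE 0.18). Cytosolic ribosomal protein genes were lower in 24 of 25, with a median of −0.25. Their medians were −0.05 for severe and −0.52 for moderately severe, with 10 and 1 of 25 higher than mild. In the enlarged group Rps19, Rpl22 and Rpl12 differed by −0.43 (SE 0.21), −0.56 (SE 0.31) and −0.74 (SE 0.47). In the Myc and ribosome biogenesis list 19 of 24 were higher, with nucleolin (Ncl) showing no overlap at 0.31 (SE 0.16). The Max partner Mxd4 differed by −1.54 (SE 0.61), Mycn by −0.91 (SE 0.44) and Wdr12 by 0.56 (SE 0.29). Of 19 glycolysis genes 13 were higher, with Ldha, lactate dehydrogenase A, showing no overlap at 0.31 (SE 0.17), Pdk1 at 0.54 (SE 0.34) and Aldoc at −0.88 (SE 0.49). The forms of enzymes that red cells use, Pklr and Pfkm, were higher in moderately severe than in severe by 3.58 (SE 0.57) and 2.77 (SE 0.45), while Pfkp differed by −2.45 (SE 0.33). Of 17 cholesterol synthesis genes 11 were higher, with medians of 0.3 for severe and −0.11 for moderately severe against mild. Idi1 showed no overlap at 1.01 (SE 0.31), and Fdps and Sqle differed by 0.82 (SE 0.30) and 0.89 (SE 0.37).

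Heat shock genes were higher in 18 of 21, with a median of 0.36 that rested largely on transitional 5, where the list score, the mean log2 deviation from the 8-array mean, was 1.27 against −0.11 to −0.04 on the other enlarged arrays. Bag3, a cochaperone of Hsp70, was 712 on transitional 5 and 112 to 156 on the others, all above the mild arrays (1.24, SE 0.53). The mitochondrial Hsp70 gene Hspa9 also showed no overlap (0.51, SE 0.22), and Hsf2 was dim, at most 21.2 (0.59, SE 0.25). Dnajb1, an Hsp40 cochaperone, was 12285 on transitional 5 and 1590 to 3357 on the other 7 arrays. Endoplasmic reticulum chaperone genes were higher than mild in 20 of 21 on the severe arrays and in 8 of 21 on the moderately severe arrays. Calnexin (Canx) and P4hb showed no overlap, at 0.39 (SE 0.17) and 0.32 (SE 0.19), and the stress gene Ddit3 differed by 0.57 (SE 0.31). Pdia4, a protein disulphide isomerase, and Sel1l, which acts in the disposal of misfolded proteins, differed by −2.70 (SE 0.43) and −1.85 (SE 0.26) between moderately severe and severe. Among 16 apoptosis genes the survival gene Mcl1 was lower on every enlarged array (−0.36, SE 0.20), and Bbc3 and Casp9 differed by 0.80 (SE 0.41) and −0.56 (SE 0.32). Bcl2 was 765 and 731 on the severe and 176 and 91.0 on the moderately severe arrays (−2.42, SE 0.35).

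Stromal genes were high on a single array. The score of the lymphoid stroma and follicular dendritic list was 2.70 on transitional 2 and between −0.89 and 0.05 on the other 7 arrays, and that of matrix and fibroblast genes 2.13 against −0.54 to 0.03. Cxcl13, the chemokine that draws B cells into follicles, was chosen after its values were seen, and was 6698 on transitional 2 and at most 165 elsewhere. Col1a2, a chain of type I collagen, was 1741 there and at most 116 elsewhere (enlarged minus mild 1.66, SE 0.86). Madcam1, a vascular addressin, and the chemokine Cxcl12 differed by 0.89 (SE 0.80) and 0.91 (SE 0.60), and Col5a2 and Lum by 1.25 (SE 0.59) and −1.02 (SE 0.34). The summed signal of the lymphoid stroma list ran from 2307 to 36390 in the enlarged and from 3978 to 6321 in the mild group. Its part in the results of the severe pair was not tested.

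**Figure D5:**
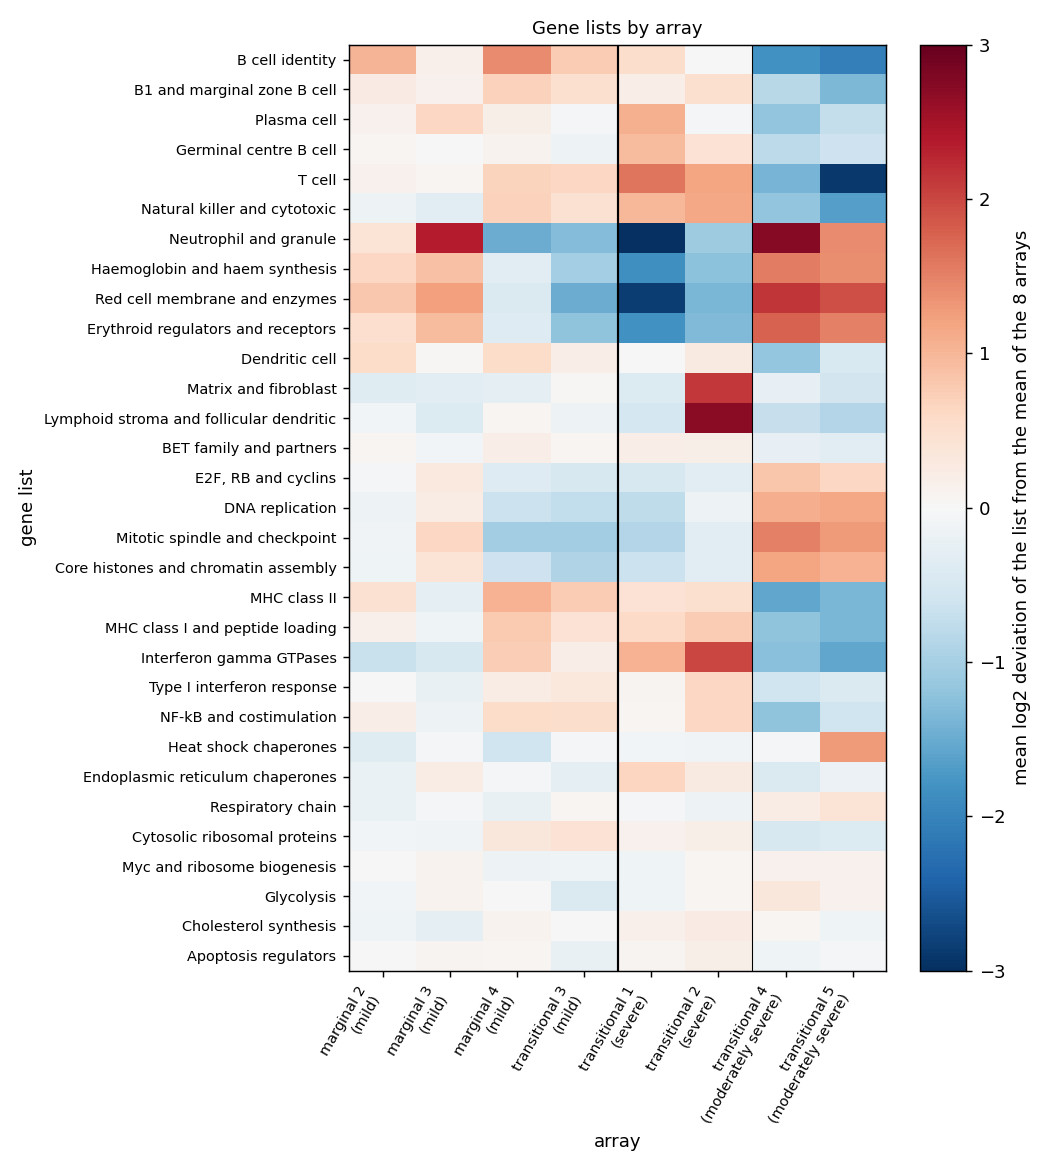
Score of 31 gene lists (rows) on each of the 8 arrays (columns, mild to the left of the thick line, severe and moderately severe to its right), as the mean log2 deviation of the list from the mean of the 8 arrays. The moderately severe columns are blue for lymphocyte and antigen presentation lists and red for red cell, granule and cell cycle lists, and the severe columns mostly show the opposite colours. A colour is set against the mean of the 8 arrays and is not a difference from mild. Against mild the severe medians were −0.39 for B cell identity, −0.15 for class II and −0.11 for DNA replication genes.

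The arrays left out did not fall between the groups in the order of their grades. Over the 147 brighter probe sets that were higher without overlap, marginal 1, of the lowest grade, lay on the side of the enlarged group in 80, within the gap in 18 and on the mild side in 49. Marginal 5 and 6, of the grade moderate, lay on the enlarged side in 52 and 73 of them. Over the 165 lower probe sets marginal 1 lay on the enlarged side in 87, and marginal 5 and 6 in 50 and 72.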

How the data were processed

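The intensity values were used as deposited. They are MAS5 signals on a linear scale, per the submitters' processing notes, with no version named. Per the labels' protocols, total RNA was copied from a poly-dT primer into biotin-labelled cRNA. The 64 control probe sets were left out of 22690, and 16 was added before log2. The number of arrays limits the precision. Symbols came from GEO's platform annotation and a RefSeq table of GRCm38.p6. Of 22626 probe sets 20380 had 1 gene, 691 several and 1555 none, and only the first were named. Groups came from the recorded spleen grade. The test was that of limma 3.58.1 under R 4.3.3 (a linear model with an intensity trend in eBayes, Benjamini-Hochberg over all probe sets, adjusted p 0.05). Contrasts between grades used 3 grade groups, and replicates are single arrays. Named were listed BET genes, 12 genes per direction by p among groups with no overlap and a mean of at least 200, 6 per direction between grades, and 3 genes by p plus every gene with no overlap of each of 31 described lists. The members and lists were chosen with earlier results of these data known. Alternatives covered the offset (1 and 64), quantile normalization, a common median, the upper 60% by mean, no trend, array weights, other groupings, class, a replicate block, and each array left out. No pair of arrays was identical, no batch records were used, and 45 lists held 724 genes on the array.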

Additional observations from a re-analysis of the deposited data

Results flagged for a closer look

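Of 306 groups of 4 arrays examined, 18 held an array far from the other 3, and chance alone gives about 1 in 20. Values are signals unless a score is named. Among the mild arrays transitional 3 was high for H2-Ea, at 3291.7 against 1856.1 to 1926.2. It was also high for Plac8, at 21853.4 against 11955.8 to 13040.9, and for Ndufa2, at 4393.2 against 3188.5 to 3338.7. Marginal 3 was low for Cd72, at 1194.2 against 3155.3 to 3520.5, and for Cd40, at 693.7 against 2075.9 to 2516.9. It was low for Mxd4, at 635.9 against 905.9 to 950.3, and for Batf3, at 163 against 182.4 to 186, and high for Tfdp1, at 1252.8 against 746.7 to 802.6. Marginal 4 was low for P4hb, at 2283.4 against 3208.6 to 3253.5, and its median signal was 137.2 against 128 to 129.4. Marginal 2 was high for Col5a2, at 18.8 against 5 to 5.4.

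Among the enlarged arrays transitional 2 was high for Col1a2, at 1741 against 67.1 to 116.4. The score of the matrix list there was 2.13 against −0.54 to −0.25, and that of the lymphoid stroma list 2.7 against −0.89 to −0.52. Transitional 5 was high for Bag3, at 712.4 against 111.9 to 155.6, and for the heat shock score, at 1.27 against −0.11 to −0.04. Transitional 4 was high for Ldha, at 7741.6 against 6382.5 to 6533, and for the dim Klra8, at 9.5 against 0.7 to 1.6.

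The difference from mild differed between the 2 grades for 2860 probe sets in the limma test. For the 12 named genes the moderately severe minus severe value on the log2 scale was 4.022 for Ptger3, 2.575 for Slc66a2, 3.21 for Ppp1r15a, 2.069 for Glo1, 3.139 for Crip2 and 2.107 for Pithd1. It was −2.836 for Ms4a1, −4.294 for Gimap7, −6.001 for Cd6, −2.998 for Gramd3, −3.674 for Lat and −3.624 for Ly9.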

How the results depend on the processing

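Enlarged against mild gave 0 calls in either direction under every offset, scaling, filter and grade grouping of the 4 arrays per group, and without any 1 array (0 to 0). Exceptions were severe arrays only, with 1 higher (H2-D1), and moderately severe arrays only, with 588 higher and 1404 lower. A further exception was class as a covariate. It sets the enlarged arrays against transitional 3 alone, the only transitional array of the mild group. There Ms4a4b differed by −7.34 and a probe set that was not named by −6.46, both lower. Probe sets with no overlap numbered 182 higher and 219 lower in the upper 60%, 2017 and 1291 with severe arrays only, and 3182 and 5416 with moderately severe arrays only. Without 1 array they ran from 468 to 749 higher and from 481 to 1191 lower. With a common median, moderately severe minus severe gave 2053 higher and 960 lower, and moderately severe minus mild 1724 and 984. Without 1 array the former ran from 1 to 1243 higher and 37 to 1876 lower, the latter from 0 to 1189 and 0 to 1864, and severe minus mild from 0 to 98. Without marginal 2, 3 or 4 or transitional 3 moderately severe minus mild gave 196, 1189, 150 and 346 higher and 740, 1864, 745 and 1097 lower. Of 110 genes named between the grades and called, 8 were called without transitional 5, 52 without transitional 4, 59 without transitional 1 and 71 without transitional 2.

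Sample number was the only number that the arrays share. Only numbers 2 and 4 occurred in both groups, so the comparison within numbers rests on these. Arrays of the same number correlated at −0.27 and −0.39. Transitional 1 with marginal 2, and transitional 5 with marginal 4, of unlike number, gave −0.23 and −0.505. Arrays of a grade thus gave similar values whatever their number, and these correlations cannot tell whether the numbers pair the arrays. With number as a replicate block 0 probe sets were called (limma; 396 higher and 532 lower at an unadjusted p under 0.05), and the log2 values of Camp, S100a8 and Mmp9 turned to 0.24, 0.785 and 1.021. Other values that turned sign were all short of the test. Brdt was −0.009 with an offset of 1, −0.238 with array weights, −0.592 with class, −0.908 with moderately severe arrays only and −0.275 to 0.498 without 1 array. Brd3 was 0.007 after quantile normalization, 0.057 with a common median, 0.157 with class and −0.154 to 0.024 without 1 array. Mmp9 was 0.087 with array weights and −1.334 to 0.298 without 1 array, and S100a8 −0.797 to 0.344. Class as a covariate gave −0.049 for Zap70, 0.488 for Mmp9, 0.172 for Hbb-b2, 0.988 for Bpgm and 0.184 for Crebbp. Severe arrays only gave −0.01 for Ung, 0.488 for Klrd1, −0.526 for Tspo2, −0.639 for Cited4, 0.021 for H2-K1, 0.043 for Rpl12, −0.001 for Uhrf1 and 0.103 for Brd2. Moderately severe arrays only gave 1.058 for Camp, 0.476 for S100a8, 0.668 for Mmp9, 1.081 for Hbb-b2, 0.294 for Bpgm, 0.012 for Lyl1, −0.483 for Madcam1 and −0.211 for Gbp7. With the arrays of a single grade, the value is the difference of that grade from mild. The cause of the changes of sign was not tested. The scaling and left-out alternatives for moderately severe and for severe minus mild were chosen after seeing the data. Dim probe sets, near the offset of 16, and 2 arrays per grade limit the precision.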

Other observations

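A pair of gene families was picked out after the values were seen, and no test was made of either. All 18 measured cytosolic aminoacyl-tRNA synthetase genes, which load amino acids onto tRNA, had a higher mean in the enlarged group, with a median of 0.45 on the log2 scale. The median was 0.25 for severe and 0.63 for moderately severe against mild, with 16 and 17 of the 18 higher. Eprs, Gars and Kars showed no overlap, at 0.42 (SE 0.19), 0.47 (SE 0.20) and 0.53 (SE 0.21), and Nars differed by 0.85 (SE 0.30). Over all probe sets 1.36% were higher with no overlap. Of 12 genes of serine and one-carbon metabolism 11 were higher, with a median of 0.34, and Psat1, Shmt2 and Mtrr showed no overlap. Psat1, the aminotransferase of serine synthesis, gave 315, 488, 505 and 665 on the mild and 1162, 928, 733 and 753 on the enlarged arrays (0.86, SE 0.27). Mthfd2, a mitochondrial folate enzyme, differed by 1.13 (SE 0.53).

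A few probe sets of the major histocompatibility complex, chosen after their values were seen, differed widely between arrays of the same grade. Apart from H2-Ea, they were picked from 104 probe sets of the protein-coding genes that RefSeq lists from H2-K1 to H2-D1. H2-Ea, itself lower with no overlap, is not among the 104. Of the 104, 4 (3.85%) were higher and 3 (2.88%) lower with no overlap, beside 1.36% and 1.54% over all probe sets. Of the 4 higher ones, 3 belong to D17H6S56E-5 and Msh5, described above. Others had a lower mean in the enlarged group, with differences of −0.90 (SE 0.49) for a probe set of H2-K1, −1.24 (SE 0.58) for H2-Ab1 and, with no overlap, −0.94 (SE 0.30) for another of H2-D1. The probe set of H2-D1 with the largest difference between severe and mild gave 9722 and 10139 on the severe arrays and 2504 on transitional 5. It gave 228 to 345 on the mild arrays and 129 on transitional 4. Of the arrays left out, marginal 5 gave 5888, marginal 6 gave 3871 and marginal 1 gave 145. H2-Eb1, a class II beta chain, gave 14222 and 15639 on the severe arrays, 568 on transitional 4 and 3647 on transitional 5. It gave 1346 to 4158 on the mild arrays, and 17476, 11215 and 987 on marginal 5, 6 and 1. H2-Ea gave 810, 1121 and 1013 on those 3 arrays, below every mild array and close to the enlarged arrays. This H2-D1 probe set is of a kind that can match several members of a family, and the labels give no haplotypes.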
